A study of Mus musculus with 88 samples.

Results

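The comparison described here set the change from undifferentiated cells (UD) to 48 h of wild-type (WT) mouse embryonic stem cells driven toward mesoderm against the same change in cells driven toward endoderm. Its members are the WT libraries of the UD and 48 h groups in the 2 directed differentiation series, chosen by genotype and time, which gives 8 of the 88 samples of the study, 2 in each of 4 groups. The study followed WT and Polycomb-mutant stem cells through embryoid body and directed differentiation. All 4 groups here are E14 cells, a line of 129 background, and the UD cells were kept in serum with leukemia inhibitory factor. In the endoderm series, cells received Activin A, the GSK3 inhibitor CHIR99021 and FGF2 for 24 h, a mixture for anterior primitive streak, and then Activin A with DM3189, an inhibitor of BMP receptors. In the mesoderm series, cells received Activin A, BMP4, CHIR99021 and FGF2 for 24 h, a mixture for mid primitive streak, and then BMP4 with A-83-01, an inhibitor of the Activin and Nodal receptors. The labels give 48 h as the time point, and the sources do not settle whether that time includes the first 24 h. Both arms thus received FGF2, CHIR99021 and Activin A at first, but not at equal doses, and only the mesoderm arm received BMP4 then. The study gives a higher dose of CHIR99021 for the mesoderm arm, and its printed doses of Activin A differ too. Later the arms differed in which branch of the TGFβ superfamily was supplied and which was blocked.

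BMP ligands bind receptors that phosphorylate SMAD1, SMAD5 and SMAD9, and the Id genes, which encode inhibitors of basic helix-loop-helix factors, are among their most direct targets. Activin and Nodal act through SMAD2 and SMAD3, and the secreted Lefty proteins are their targets and feedback inhibitors. In the gastrulating embryo, cells at high BMP become lateral and extraembryonic mesoderm, and cells at high Nodal in the anterior streak become definitive endoderm. The question put to the data was which genes changed differently between the arms once each arm was set against its own undifferentiated cells.

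The values are estimated counts per gene from rRNA-depleted RNA, and the 8 libraries held from 9883730 to 13915534 counts. Levels are given as CPM, counts per 1000000 counts of a library after TMM scaling. Because the series are separate tables, the difference is the log2 change in the mesoderm series minus the log2 change in the endoderm series, here called the difference of changes, and it was tested with edgeR's quasi-likelihood test in 1 fit of all 48 directed libraries. Calls required a p below 0.001 after Benjamini-Hochberg adjustment together with a log2 value beyond 1 in size. "Rose" and "fell" are used of called changes, and a value after ± is a standard error of the fit with n = 2 libraries per group. In bulk RNA, fewer cells of a type and less RNA per cell cannot be told apart.

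Before any differentiation the WT cells of both series were close, with 45 of 19601 genes called between the UD groups (0.23%, with 0.0663% higher and 0.163% lower in the mesoderm series), and none of the genes reported below as differing at 48 h was among them. Same-numbered UD libraries of the 2 series were more alike than the replicates within a series. For WT cells the median ratio of observed to sampling chi-square was 2.49 for the pair numbered 1 and 1.91 for the pair numbered 2, against 4.76 and 4.27 for the replicates within the mesoderm and endoderm series. The labels do not say whether these libraries share RNA or a culture, and whether the UD groups of the series are independent was not tested. Of the 24 groups of the 48 libraries, the replicates of WT mesoderm 48 h were farthest apart by chi-square per degree of freedom (17.1, against 2.36 to 12.2 in the others), and second by the median ratio (4.68). The count of 45 was 23 to 26 in the fits without any 1 of the 4 WT UD libraries. The share of counts from the small noncoding RNAs 7SK, 7SL, Rpph1 and Rmrp was 3.28% to 6.45% in the WT libraries of the mesoderm series and 1.22% to 4.41% in those of the endoderm series, and its part in the results was not tested. A difference between series that arose after UD cannot be told apart from the difference in protocol.

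The tissue labels were checked against defining markers. Of the endoderm markers, Foxa2 was at 0.341 and 0 CPM and Sox17 at 0.171 and 0.37 CPM in the endoderm 48 h libraries. Cxcr4 was at 0.256 and 0.462 CPM there, and Gsc and Cer1 did not pass the filter on low counts. All of these markers were thus at or near 0. Hhex, also a defining endoderm marker, was present in both arms, with 99 reads in the endoderm and 129 in the mesoderm 48 h libraries. It reached at most 5.17 and 5.65 CPM of the unscaled library total there, and the UD libraries of these series held 124 and 73 reads. Of the mesoderm markers, Kdr was at 0.199 and 0.0823 CPM and Pdgfra at 1.85 and 1.24 CPM in the mesoderm 48 h libraries. Tbx6 had 16 reads in these libraries, against 18 in the UD libraries of that series, and Mesp1 and Foxf1 did not pass the filter. Mixl1, a lineage gene outside the set of defining markers, was at 0.132 and 0.412 CPM in the mesoderm 48 h libraries. Msx2 and Hand1, which mark lateral and extraembryonic mesoderm, were present there. Pou5f1, the stem cell factor Oct4, stood at 564 and 642 CPM in the mesoderm and 687 and 645 CPM in the endoderm libraries at 48 h, and Sox2 at 199 and 159 against 131 and 115 CPM. Neither Pou5f1 nor Sox2 was called in either change or in the difference. The arms are therefore called mesoderm and endoderm by their labels, not by these markers.

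The 48 h change was called for 1763 genes in the mesoderm series (8.99% of 19601 tested, with 1134 or 5.79% higher and 629 or 3.21% lower) and for 1676 in the endoderm series (8.55%, with 1060 or 5.41% higher and 616 or 3.14% lower). Across both arms, 614 genes rose in both arms and 338 fell in both. The series share the design but no library, apart from the likeness of their UD libraries given above. The difference of changes was called for 264 genes (1.35%), of which 163 were higher in mesoderm (0.832%) and 101 lower (0.515%). Of these, 260 are protein-coding (98.5%, against 75.5% of all tested genes). The count was 170 without replicate 1 of endoderm UD and 27 in a fit of the 8 libraries alone, where the spread rests on 4 residual degrees of freedom. All 264 had CPM at 48 h that did not overlap between the arms, where 52.4% of all tested genes did not overlap either.

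The 163 genes with the higher change in mesoderm reached that state in several ways. Of these, 67 rose in mesoderm with no called change in endoderm, 52 fell in endoderm with no called change in mesoderm, and 11 rose in mesoderm and fell in endoderm. A further 22 were called in neither change alone. Of the 101 genes with the lower change in mesoderm, 40 fell in mesoderm only, 32 rose in endoderm only, 6 fell in mesoderm and rose in endoderm, and 12 were called in neither. The median difference of changes was 1.85 among the higher genes and −1.79 among the lower genes, and 0.001 over all tested genes.

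**Figure D1:**
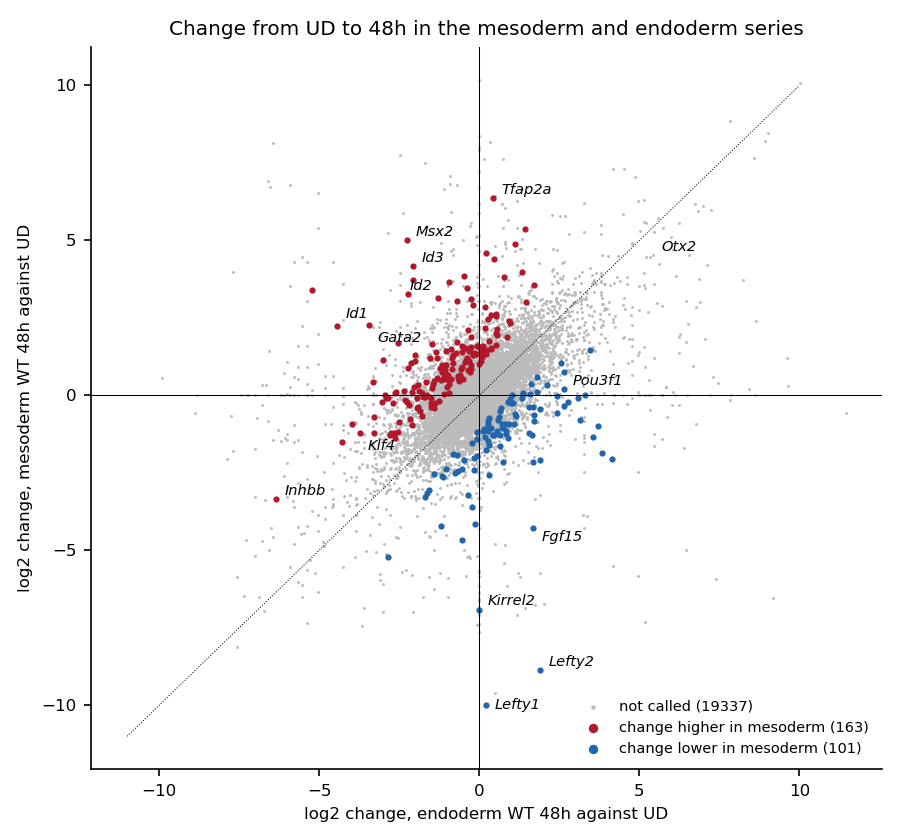
Log2 change from UD to 48 h in the endoderm series (horizontal) and in the mesoderm series (vertical) for the 19601 tested WT genes, with 163 genes of higher change in mesoderm in red, 101 of lower change in blue and the line of equal change dotted. Most genes lie along that line, the Id genes and Msx2 lie above it, and Lefty2, Kirrel2 and Fgf15 lie below; the place of Lefty1 rests on 1 read in the mesoderm 48 h libraries.

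In the scatter of both changes, genes of both signaling branches that the protocols opposed lie far from the line of equal change, as do genes of neither, such as Kirrel2. Of 20 tested genes in the list of BMP targets and feedback genes (22 listed), 7 were higher in mesoderm (Id1, Id2, Id3, Id4, Msx2, Gata2 and Smad6) and 1 was lower (Smad7). The median difference of the list was 2.68, against 0.001 over all genes. In the mesoderm series 12 of the 20 rose and 1 fell, and in the endoderm series 2 rose and 5 fell. All 7 higher calls held in each of the 8 fits that left out 1 of the 8 libraries, and 5 were made in a fit of the 8 libraries alone.

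The promoters of 4 of these genes are shown, because SMAD1 and SMAD5 are known to bind a GC-rich element that contains the letters GGCGCC. Id1 had no entry among the promoters used, and those of Gata2 and Smad6 are not shown. Each promoter shown covers 250 bases before to 50 bases after the RefSeq gene start on GRCm38.p6, read 5′ to 3′ along the gene. They lie at chr12:25096043-25096342 (Id2, minus strand), chr4:136143572-136143871 (Id3, plus strand), chr13:48260866-48261165 (Id4, plus strand) and chr13:53472731-53473030 (Msx2, minus strand). Capitals mark GGCGCC, which reads the same on both strands and overlaps no other motif searched.
Id2: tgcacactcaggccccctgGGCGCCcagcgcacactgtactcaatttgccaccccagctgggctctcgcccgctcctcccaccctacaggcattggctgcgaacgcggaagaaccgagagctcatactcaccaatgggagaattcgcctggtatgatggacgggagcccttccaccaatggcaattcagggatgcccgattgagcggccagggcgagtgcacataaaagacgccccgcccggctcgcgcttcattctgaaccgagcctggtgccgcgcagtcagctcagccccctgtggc
Id3: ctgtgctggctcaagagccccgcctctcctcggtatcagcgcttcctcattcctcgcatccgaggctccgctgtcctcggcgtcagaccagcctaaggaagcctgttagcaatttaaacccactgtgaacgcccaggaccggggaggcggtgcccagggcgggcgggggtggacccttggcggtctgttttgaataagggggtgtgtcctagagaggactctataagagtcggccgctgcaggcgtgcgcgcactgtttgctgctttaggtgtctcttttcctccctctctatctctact
Id4: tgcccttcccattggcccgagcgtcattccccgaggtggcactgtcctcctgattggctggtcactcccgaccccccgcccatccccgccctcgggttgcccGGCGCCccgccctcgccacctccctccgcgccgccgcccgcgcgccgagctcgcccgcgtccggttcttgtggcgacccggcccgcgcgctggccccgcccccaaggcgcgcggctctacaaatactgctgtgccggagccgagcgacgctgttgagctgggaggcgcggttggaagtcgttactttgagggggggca
Msx2: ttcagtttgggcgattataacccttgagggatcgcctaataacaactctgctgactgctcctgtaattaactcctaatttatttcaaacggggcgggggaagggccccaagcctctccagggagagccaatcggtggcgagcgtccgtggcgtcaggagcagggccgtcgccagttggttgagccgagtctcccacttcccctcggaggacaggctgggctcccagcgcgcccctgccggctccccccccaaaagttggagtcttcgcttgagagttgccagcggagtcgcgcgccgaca
The match in Id2 starts 231 bases before the gene start and that in Id4 148 bases before it, and the windows of Id3 and Msx2 hold none. Promoters were matched by symbol for 120 of the 163 higher and 72 of the 101 lower genes. The letters were found in 29.8% of 171 promoters of the higher genes, in 22.0% of 100 promoters of the lower genes, in 19.6% of the promoters of all tested genes and in 11.9% of all 32851 promoters of this length. Promoters of the higher genes were also richer in G and C (61.6%) than those of the tested genes (59.7%), and a match is not a binding site.

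Id1 (chr2:152736251-152737410) rose in mesoderm and fell in endoderm. Its level was 78.7 and 76.6 CPM in the UD and 372 and 358 CPM in the 48 h libraries of the mesoderm series, and 74.1 and 76 CPM falling to 5.12 and 1.66 CPM in the endoderm series. The UD levels thus lay within a few CPM of each other and the 48 h groups lay far apart. The difference of changes was 6.68 ± 0.32 on the log2 scale (edgeR Benjamini-Hochberg adjusted p = 4.6e-16), made of a change of 2.23 ± 0.19 in mesoderm and of −4.44 ± 0.26 in endoderm.

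Id3 began lower, at 7.16 and 7.35 CPM in the UD libraries of the mesoderm series, and reached 125 and 136 CPM at 48 h. In the endoderm series it went from 7.45 and 5.67 CPM to 1.53 and 1.57 CPM. Its difference was 6.24 ± 0.30 (edgeR adjusted p = 4.6e-16). Id2 had 13.2 and 15.1 CPM at UD and 148 and 103 CPM at 48 h in the mesoderm series, and 15.2 and 16 CPM against 8.53 and 4.25 CPM in the endoderm series, a difference of 4.42 ± 0.27 (edgeR adjusted p = 1.6e-13). Id4, named after its values were seen because it completes the family, rose from 1.29 and 1.97 to 19.1 and 17.1 CPM in mesoderm and stood at 1.45 and 2.22 CPM in endoderm at 48 h (difference 3.85 ± 0.38). All 4 Id genes therefore rose in the mesoderm arm, and Id1, Id2 and Id3 fell in the endoderm arm.

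Msx2, a homeobox gene of BMP-responsive tissue, had the largest difference of the list. It was at 0.697 and 1.2 CPM at UD and 29.3 and 33.6 CPM at 48 h in the mesoderm series, and at 1.02 and 0.732 CPM and then 0.256 and 0.0924 CPM in the endoderm series. The difference was 7.26 ± 0.66 (edgeR adjusted p = 2.7e-09), and the endoderm 48 h libraries held 4 reads of it in all. Gata2, a zinc finger factor of blood, trophoblast and amnion, rose from 4.08 and 2.99 to 15.9 and 17.9 CPM in mesoderm and fell from 3.73 and 3.2 to 0.341 and 0.277 CPM in endoderm (difference 5.70 ± 0.67, edgeR adjusted p = 4.3e-07).

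The inhibitory SMAD genes went opposite ways. Smad6, which restrains BMP signaling and was named after its values were seen, rose from 5.37 and 3.16 to 10.5 and 10.6 CPM in mesoderm and fell from 3.26 and 3.85 to 1.36 and 0.37 CPM in endoderm (difference 3.32 ± 0.48). Smad7, which restrains both branches and also stands in the Nodal list, fell from 136 and 109 to 34.8 and 48.8 CPM in mesoderm and was at 106 and 88.3 CPM in endoderm at 48 h, against 124 and 102 CPM at UD (difference −1.34 ± 0.18, edgeR adjusted p = 3.9e-06).

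Among BMP ligands and receptors, 15 tested genes gave no called difference (0 higher, 0 lower, list median −0.20). Bmp4 itself fell in both arms, from 48.7 and 40.2 to 17.8 and 15.6 CPM in mesoderm and from 47.2 and 37.4 to 11.3 and 4.99 CPM in endoderm. Bmp2 stayed at or below 0.341 CPM in all 8 libraries.

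**Figure D2:**
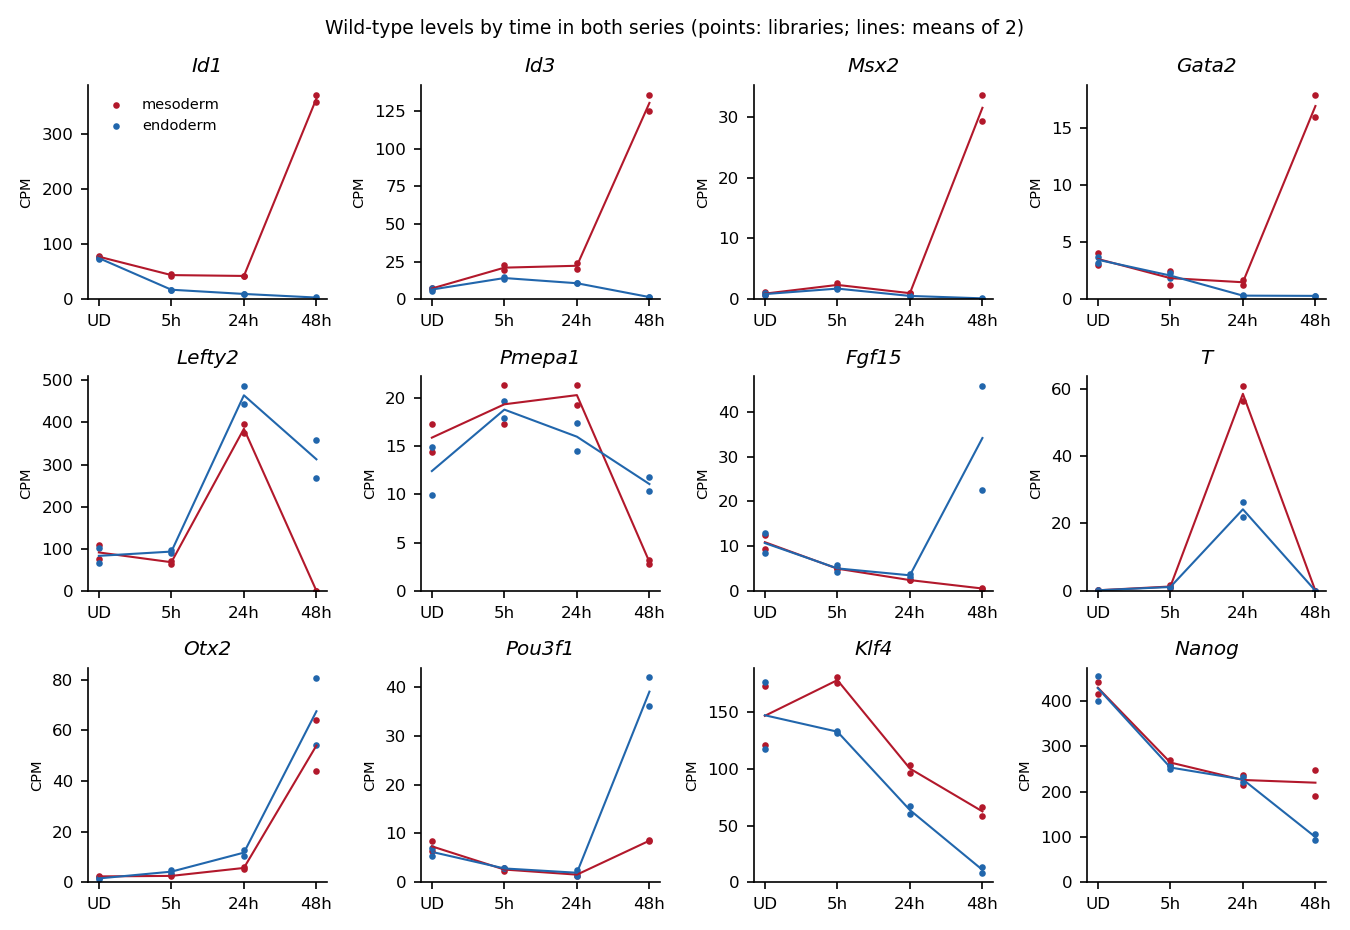
CPM of 12 genes in the WT libraries at UD, 5 h, 24 h and 48 h, with mesoderm in red, endoderm in blue, a point per library and a line through the mean of 2. Id1, Id3, Msx2 and Gata2 are highest in the mesoderm 48 h libraries, with Id1 already apart at 24 h, Lefty2 is high in both arms at 24 h and stays high only in endoderm, and T peaks at 24 h in both.

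Few genes separated the arms at 24 h. At that time the difference of changes was called for 3 genes (0.0153% of 19601, with 0.0102% higher and 0.0051% lower), and 2 of them, Id1 and Id2, belong to the 264. Id1 was at 43.2 and 42.1 CPM in mesoderm and 10.6 and 9.28 CPM in endoderm at 24 h, a difference of 2.05 ± 0.29 (edgeR adjusted p = 0.00042). Id2 was at 11.3 and 8.96 against 2.14 and 2.95 CPM (difference 2.11 ± 0.30, adjusted p = 0.00048). Of the 8 fits that left out 1 WT library at UD or 24 h, 7 called 0 genes, and the fit without replicate 1 of endoderm 24 h called 1.

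The streak gene T (Brachyury) was at 56.2 and 60.7 CPM in mesoderm and 26.5 and 21.9 CPM in endoderm at 24 h, and at or below 0.275 CPM at UD and at 48 h in both arms. Sp5, a direct Wnt target, had 21.1 and 22.1 CPM and 7.41 and 8.65 CPM at 24 h and 0 in all 4 libraries at 48 h. Both genes were thus seen in the 24 h libraries and were near 0 in the 48 h libraries of each arm.

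Targets of Nodal and Activin moved the other way. Of 16 tested genes (19 listed), 5 were lower in mesoderm, among them Lefty1, Lefty2, Pmepa1 and Smad7, and 1 was higher (Inhbb), with a list median of −1.01. Without 1 library 4 to 6 were lower and 1 higher, and in a fit of the 8 libraries alone 2 were lower and 0 higher. In the mesoderm series 2 of the 16 rose and 6 fell, and in the endoderm series 5 rose and 2 fell. 

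Lefty2 had 108 and 74.7 CPM at UD, 396 and 374 CPM at 24 h and 0.0662 and 0.329 CPM at 48 h in the mesoderm series. The endoderm series had 101 and 65.5 CPM at UD, 443 and 486 CPM at 24 h and 358 and 267 CPM at 48 h. The gene was high in every 24 h library, and 5 reads of it remained in the mesoderm 48 h libraries. The difference of changes at 48 h was −10.78 ± 0.53 (edgeR adjusted p = 4.6e-16). Its near-identical neighbor Lefty1 went from 58.9 and 36.8 CPM to 0.0662 and 0 CPM in mesoderm and from 55.8 and 36.8 to 69.4 and 37.6 CPM in endoderm. The mesoderm 48 h libraries held 1 read of Lefty1 and the UD libraries 1022, a ratio per total count of 1210 (95% counting interval 217 to 47900, counting error only). How reads were divided between the Lefty paralogs is uncertain.

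Pmepa1, a feedback inhibitor of TGFβ signaling, fell from 17.3 and 14.4 to 2.78 and 3.21 CPM in mesoderm and was at 11.8 and 10.3 CPM in endoderm at 48 h, against 14.9 and 9.89 CPM at UD (difference −2.24 ± 0.26, edgeR adjusted p = 2.8e-07).

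Other members of the pathway did not part in this way. Nodal was at 35.2 and 29.1 CPM in mesoderm and 34.9 and 36.4 CPM in endoderm at 48 h and was not called. Eomes, a T-box factor of streak and endoderm, rose in both arms, to 9.14 and 10.7 CPM and to 11.1 and 11.9 CPM. Inhbb, which encodes a subunit of activin B, fell in both arms and farther in endoderm, from 99 and 84.5 to 6.22 and 12 CPM in mesoderm and from 97.6 and 78.6 to 0.768 and 1.39 CPM in endoderm (difference 3.00 ± 0.44, edgeR adjusted p = 2e-05).

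Core and naive pluripotency genes, taken as 1 list, fell in more numbers in the endoderm arm. Of 18 tested genes of this list, 13 fell in endoderm and none rose, and 5 fell and 1 rose in mesoderm. The difference of changes was called for 7 higher genes (Tbx3, Klf4, Klf2, Dppa3, Nanog, Tet2 and Tfcp2l1) and 1 lower gene (Nr0b1), with a list median of 0.78. The number of higher calls was 3 without replicate 1 of mesoderm 48 h, 4 without replicate 2 of endoderm 48 h or replicate 2 of mesoderm UD, and 5 or 6 without any 1 of the other libraries. In a fit of the 8 libraries alone it was 0.

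Klf4, a Krüppel-like factor of naive cells, was at 173 and 121 CPM at UD and 58.6 and 66.7 CPM at 48 h in mesoderm, and at 177 and 118 CPM and then 8.36 and 13.8 CPM in endoderm. It fell in both arms, and the difference was 2.51 ± 0.26 (edgeR adjusted p = 3.1e-08). Tbx3, a T-box factor of naive cells that also responds to BMP, was at 153 and 184 CPM in mesoderm at 48 h against 192 and 119 CPM at UD, and fell from 176 and 128 to 20.1 and 29.6 CPM in endoderm (difference 2.73 ± 0.26, edgeR adjusted p = 8.4e-09). Nanog stood at 416 and 443 and then 249 and 191 CPM in mesoderm and fell from 401 and 456 to 106 and 94 CPM in endoderm (difference 1.13 ± 0.16, edgeR adjusted p = 1e-05, and 0.93 without replicate 1 of mesoderm 48 h, under the size limit). Nr0b1 (Dax1) went against the list, at 15.6 and 14.7 CPM in mesoderm and 37.7 and 38.6 CPM in endoderm at 48 h, from 74.2 to 82.1 CPM in the UD libraries (difference −1.35 ± 0.20, edgeR adjusted p = 1.9e-05).

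Genes of the formative and primed epiblast, the state through which naive cells pass on their way to the germ layers, rose chiefly in endoderm. Of 14 tested genes 9 rose in endoderm and 2 in mesoderm, and none fell in either arm. The difference was called for 3 lower genes (Pou3f1, Dnmt3b and Dusp6) and no higher gene, with all 14 differences below 0 and a list median of −1.01. Without 1 library 2 to 4 genes were called lower (2 without replicate 2 of endoderm UD, replicate 1 of mesoderm 48 h or replicate 1 of mesoderm UD), and in a fit of the 8 libraries alone 0.

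Pou3f1 (Oct6), a POU factor of the primed state, was at 6.37 and 8.38 CPM at UD and 8.67 and 8.4 CPM at 48 h in mesoderm, and rose from 6.99 and 5.49 to 41.9 and 36.1 CPM in endoderm (difference −2.44 ± 0.31, edgeR adjusted p = 1.4e-06). Dnmt3b, a de novo DNA methyltransferase, was at 105 and 86.6 and then 171 and 154 CPM in mesoderm, and rose from 98.9 and 76.7 to 623 and 474 CPM in endoderm (difference −1.88 ± 0.20, edgeR adjusted p = 3.3e-08). Otx2, a homeobox gene of epiblast and anterior endoderm, rose in both arms, from 2.69 and 2.05 to 64.2 and 43.8 CPM in mesoderm and from 1.68 and 1.47 to 80.8 and 54.2 CPM in endoderm, and its difference of −0.90 ± 0.43 was not called (edgeR adjusted p = 0.28). Fgf5, named after its values were seen, was at 0.794 and 0.659 CPM in mesoderm and rose to 19 and 15.1 CPM in endoderm, but with 1 read in each pair of UD libraries its difference was not called (edgeR adjusted p = 0.32).

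Genes of amnion and trophoblast rose in 9 of 15 tested cases in mesoderm and in 3 in endoderm, where 2 fell. The difference was called higher for 3 of them, Tfap2a, Gata2 and Tfap2c, and lower for none, with a list median of 0.90. Tfap2a, an AP-2 factor of surface ectoderm, neural crest and amnion, was at 0.497 and 0.513 CPM at UD and 46.1 and 38.2 CPM at 48 h in mesoderm, and at 1.21 and 0.641 and then 1.19 and 1.29 CPM in endoderm. Its difference was 5.93 ± 0.75 (edgeR adjusted p = 1.5e-06), and its call was lost without replicate 1 of endoderm UD (5.41, edgeR adjusted p = 0.0017). Tfap2c, the AP-2 factor of trophoblast and germ cells, rose from 21.2 and 15.1 to 33.5 and 47.2 CPM in mesoderm and fell from 21.7 and 14 to 2.22 and 2.22 CPM in endoderm (difference 4.16 ± 0.31, edgeR adjusted p = 2.8e-11).

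Of the markers set for trophoblast, Tpbpa did not pass the filter, with 1 read in the mesoderm and 1 in the endoderm 48 h libraries. Elf5 had 43 reads in mesoderm and 66 in endoderm at 48 h, against 40 and 111 at UD. Krt7 had 98 reads in mesoderm and 70 in endoderm at 48 h, against 60 and 64 at UD. Its highest 48 h levels were 4.02 and 4.07 CPM of the unscaled library total. The part of other cell types in the rise of the AP-2 genes was not tested.

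Of 14 tested lateral plate and extraembryonic mesoderm genes (19 listed), 4 rose and 2 fell in mesoderm, none rose in endoderm, and Msx2 alone was called in the difference. The count was 2 without replicate 1 of endoderm 48 h or replicate 1 of endoderm UD, and 1 without any 1 of the other libraries. Hand1, a basic helix-loop-helix factor of lateral and extraembryonic mesoderm, had 3 reads in the mesoderm UD libraries and 141 in the 48 h libraries, a ratio per total count of 39.6 (95% counting interval 13.3 to 194). It was at 4.57 and 5.93 CPM in mesoderm and 0.341 and 0.277 CPM in endoderm at 48 h, and although it rose in mesoderm, its difference missed the threshold (edgeR adjusted p = 0.0085). The hemato-endothelial list gave 1 call (Gata2 of 15), the cardiac list 1 (Ryr2 of 11), and the lists of streak and nascent mesoderm (17 tested) and paraxial mesoderm (12 tested) gave 0. Ryr2, the cardiac ryanodine receptor, rose from 8.86 and 11.5 to 31.1 and 30.9 CPM in mesoderm and was at 13.6 and 10.2 CPM in endoderm at 48 h (difference 1.50 ± 0.22, edgeR adjusted p = 2.8e-05).

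None of the 19 tested definitive endoderm genes was called in the difference (list median 0.45), and 5 rose in mesoderm and 6 in endoderm. Those that rose in endoderm were Epcam, Cldn6, Krt18, Otx2, Prdm1 and Gpc4, which epithelial or epiblast cells also express. Of 15 tested visceral and extraembryonic endoderm genes, Hnf4a was called higher in mesoderm, at 5.16 and 3.71 against 0.426 and 0.739 CPM at 48 h (difference 3.13 ± 0.60, edgeR adjusted p = 0.0008). The Hnf4a call was lost without replicate 1 or 2 of endoderm 48 h, replicate 1 of endoderm UD, replicate 1 of mesoderm 48 h or replicate 2 of mesoderm UD, with edgeR adjusted p from 0.003 to 0.018. Of the visceral endoderm markers Afp and Ttr, the mesoderm 48 h libraries held 1 and 2 reads and the endoderm 48 h libraries 0. Of Amn and Apoa1, also set as such markers, the mesoderm 48 h libraries held 16 and 7 reads and the endoderm 48 h libraries 11 and 1.

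**Figure D3:**
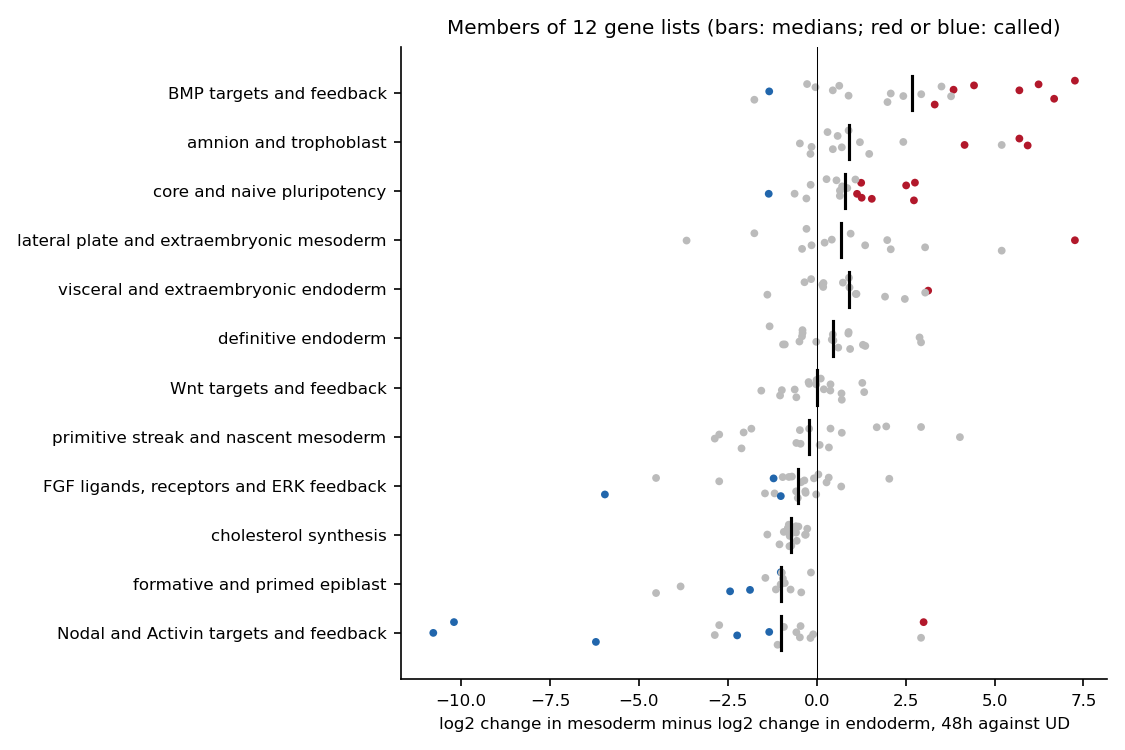
Log2 difference of changes at 48 h (mesoderm minus endoderm) for each tested member of 12 gene lists, with a black bar at the list median, called genes in red (higher) or blue (lower) and the rest in gray. The BMP list lies farthest to the right with a median of 2.68, the Nodal and formative lists lie to the left with medians of −1.01, and the Wnt and definitive endoderm lists hold no called gene.

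The plot of gene lists also places growth factor genes. Of 23 FGF ligands, receptors and ERK feedback genes, 3 were lower in mesoderm (Fgf15, Etv1 and Dusp6) and none higher, with a list median of −0.54. Fgf15, a secreted FGF of early epiblast and neural tissue, fell from 12.4 and 9.4 to 0.662 and 0.412 CPM in mesoderm and rose from 12.9 and 8.51 to 45.8 and 22.6 CPM in endoderm (difference −5.96 ± 0.50, edgeR adjusted p = 3.6e-10). Dusp6, an ERK phosphatase, was at 44.8 and 55.3 CPM in mesoderm and rose to 96.3 and 99.9 CPM in endoderm (difference −1.01 ± 0.20, edgeR adjusted p = 0.00099). The Dusp6 call was lost without replicate 2 of endoderm 48 h, replicate 2 of endoderm UD, replicate 1 of mesoderm 48 h or replicate 1 of mesoderm UD, with edgeR adjusted p from 0.0073 to 0.019. That of Etv1, an ERK-responsive ETS factor (difference −1.22 ± 0.24), was lost in every fit without 1 library except that without replicate 1 of mesoderm 48 h, with edgeR adjusted p from 0.0012 to 0.015.

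Of 15 PDGF and VEGF receptors and ligands, 3 were higher in mesoderm. Nrp2, a coreceptor for VEGF and semaphorins, rose from 11.8 and 7.87 to 79.6 and 89.1 CPM in mesoderm and was at 6.4 and 9.15 CPM in endoderm at 48 h (difference 3.37 ± 0.25, edgeR adjusted p = 1.6e-11). Pdgfa, a PDGF ligand, rose from 34 and 28.1 to 66.8 and 61.3 CPM in mesoderm and was at 15.6 and 15.5 CPM in endoderm (difference 1.85 ± 0.19, edgeR adjusted p = 2e-08). Its receptor Pdgfra, a mesoderm marker, was at 1.85 and 1.24 CPM in mesoderm and fell to 0.512 and 0.277 CPM in endoderm, and its difference was not called (edgeR adjusted p = 0.0032). Kit, the stem cell factor receptor, fell in both arms, to 22.1 and 20 CPM in mesoderm and 6.99 and 2.22 CPM in endoderm (difference 2.07 ± 0.33, edgeR adjusted p = 5.7e-05). Without replicate 2 of endoderm 48 h the difference of Kit was 1.49 (edgeR adjusted p = 0.0016), and without replicate 1 of endoderm UD it was 1.86 (edgeR adjusted p = 0.001), neither of them called.

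No Wnt target (17 tested, list median −0.01) and no Wnt ligand or receptor (23 tested, list median 0.35) was called in the difference. Axin2, a Wnt feedback gene, was at 18.1 and 17.1 CPM in mesoderm and 8.44 and 5.17 CPM in endoderm at 48 h, against 7.87 to 13.6 CPM in the UD libraries, and missed the threshold (difference 1.33 ± 0.27, edgeR adjusted p = 0.0013). Axin2 was called without replicate 1 of endoderm 48 h (1.72), replicate 2 of endoderm UD (1.68) or replicate 1 of mesoderm UD (1.56), and in 7 of 11 other settings. No gene was called in the Notch (15 tested), Hedgehog (12), retinoic acid (12), neural ectoderm (9), basement membrane (18), S phase (18), G2 and M phase (18), oxidative phosphorylation (18) or Hox lists (4 anterior and 8 posterior).

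Cadherin genes changed in both arms. Of 20 cadherin and epithelial-mesenchymal transition genes, 8 rose and 3 fell in mesoderm and 10 rose and 2 fell in endoderm. Cdh1 (E-cadherin) rose from 269 and 193 to 535 and 593 CPM in mesoderm and from 251 and 204 to 561 and 513 CPM in endoderm, without a called difference. Cdh2 (N-cadherin), a mesenchymal cadherin, was at 1.72 and 4.04 CPM in mesoderm at 48 h, against 2.39 and 1.54 CPM at UD, and rose from 1.86 and 1.37 to 4.26 and 6.19 CPM in endoderm, also without a called difference (−1.15 ± 0.43, edgeR adjusted p = 0.13). Cdh3 (P-cadherin) rose in both and farther in endoderm, to 39.5 and 42.2 CPM against 130 and 94.7 CPM (difference −1.53 ± 0.19, edgeR adjusted p = 1.2e-06). Vim, the mesenchymal filament vimentin, fell in both, to 9.14 and 13.9 CPM in mesoderm and 31.8 and 29.9 CPM in endoderm (difference −1.50 ± 0.29, edgeR adjusted p = 0.00098). The Vim call was lost without replicate 1 or 2 of endoderm 48 h, replicate 2 of endoderm UD, replicate 1 of mesoderm 48 h or replicate 1 of mesoderm UD, with edgeR adjusted p from 0.003 to 0.026.

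Among metabolic and stress lists, 6 of 18 cholesterol synthesis genes rose in endoderm and 1 in mesoderm, and all 18 differences lay below 0 with a median of −0.74, yet none was called. Without replicate 2 of mesoderm 48 h, 2 of them were called lower, Cyp51 (−1.88) and Lss (−1.43). Cyp51, a sterol demethylase, was at 58.3 and 107 CPM in mesoderm and 182 and 269 CPM in endoderm at 48 h, from 71.5 to 76.4 CPM at UD (difference −1.39 ± 0.33, edgeR adjusted p = 0.0078). Glycolysis genes fell in both arms, 8 of 18 in mesoderm and 7 in endoderm, and p53 targets rose in both, 8 of 13 in mesoderm and 7 in endoderm. Of the p53 targets, 1 was called in each direction. Perp, a desmosomal membrane protein gene, was higher in mesoderm (33.6 and 38 against 13.8 and 17.7 CPM at 48 h, difference 1.25 ± 0.21, edgeR adjusted p = 0.00011), a call lost without replicate 1 of endoderm 48 h, endoderm UD or mesoderm UD (edgeR adjusted p from 0.0013 to 0.0017). Pmaip1 (Noxa), a pro-apoptotic gene, was lower in mesoderm (6.29 and 7 against 30.2 and 23.8 CPM at 48 h, difference −1.73 ± 0.22, edgeR adjusted p = 1.4e-06).

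Outside these lists the largest differences also fell on a few further genes. Coch, which encodes the extracellular protein cochlin, rose from 5.08 and 5.73 to 64.1 and 39.9 CPM in mesoderm and fell from 5.78 and 5.49 to 1.71 and 0.647 CPM in endoderm (difference 5.49 ± 0.44, edgeR adjusted p = 1.9e-10). Lrrc15, a leucine-rich repeat membrane protein, rose from 0.796 and 1.45 to 17.5 and 12.8 CPM in mesoderm and was at 0.171 and 0.37 CPM in endoderm (difference 5.79 ± 0.64, edgeR adjusted p = 1.1e-07). Nefl, the light neurofilament chain, fell from 12.5 and 12.1 to 1.92 and 4.04 CPM in mesoderm and rose from 12.1 and 12.1 to 44.4 and 45.9 CPM in endoderm (difference −3.99 ± 0.36, edgeR adjusted p = 2.3e-09). Coch and Nefl thus moved in opposite directions in the 2 arms.

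Pkdcc, a secreted kinase, was at 0.794 and 0.988 CPM in mesoderm and rose from 1.68 and 1.74 to 20.9 and 19.8 CPM in endoderm (difference −4.92 ± 0.51, edgeR adjusted p = 3.1e-08). Chst15, a sulfotransferase of chondroitin sulfate, followed it, at 0.927 and 0.494 CPM in mesoderm and 21.6 and 12.2 CPM in endoderm at 48 h (difference −4.70 ± 0.49, edgeR adjusted p = 4.1e-08). The full set of 11 genes that rose in mesoderm and fell in endoderm, named here as a set after their values were seen, was Id1, Id2, Id3, Gata2, Coch, Tfap2c, Smad6, Calcoco2, Lrrc31, Wfdc2 and Ephx2. The 6 genes with the opposite course were Lefty2, Fgf15, Nefl, Zfp819, Crmp1 and Cpeb1.

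Several called genes were chromosomal neighbors. Runs of adjacent tested genes called in the same direction numbered 8 and held 22 of the 264 genes, 5 runs higher and 3 lower in mesoderm, and 4 of them had at least 3 genes. How many runs would arise if the called genes were scattered at random was not tested. Some runs hold overlapping genes or near-identical paralogs, whose calls are not separate. The members of these runs other than Lefty1, Lefty2, Kirrel2, Nphs1, R3hdml, Hnf4a, Nanog and Slc2a3 were named after their values were seen. Coordinates are those of GENCODE M21 on GRCm38.

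Lefty2, Lefty1 and Tmem63a lie in a run of lower genes on chromosome 1, on the plus strand. Tmem63a, a mechanosensitive channel gene, fell from 7.66 and 6.67 to 1.85 and 1.32 CPM in mesoderm and was at 14 and 12.2 CPM in endoderm (difference −2.90 ± 0.32, edgeR adjusted p = 1.1e-07). The flanking tested genes Sde2 and Ephx1 were not called, with differences of 0.05 ± 0.19 and 0.68 ± 0.35.

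On chromosome 7, Aplp1, Kirrel2, Nphs1 and its antisense gene Nphs1os form a run of lower genes. Kirrel2 and Nphs1 (nephrin) encode adhesion proteins that bind each other. Kirrel2 fell from 21.8 and 16.2 to 0.0662 and 0.247 CPM in mesoderm and was at 18.6 and 15.2 CPM in endoderm at 48 h (difference −6.91 ± 0.43, edgeR adjusted p = 3.1e-13). Nphs1 fell from 56.7 and 57.9 to 1.72 and 2.88 CPM in mesoderm and was at 36.9 and 34.7 CPM in endoderm (difference −4.12 ± 0.25, edgeR adjusted p = 1.6e-13). Nphs1os overlaps Nphs1, and whether the counting used strand is not given in the sources used here, so its reads cannot be told apart from those of Nphs1. Aplp1, a gene of the amyloid precursor family, fell to 8.14 and 12 CPM in mesoderm and was at 33.3 and 29.9 CPM in endoderm (difference −1.72 ± 0.22, edgeR adjusted p = 1.6e-06).

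The runs of higher genes include Lrrc34, Lrriq4 and Lrrc31 on chromosome 3, where the bodies of Lrrc34 and Lrriq4 overlap. Lrrc34 was at 38.4 and 25 CPM in mesoderm and fell from 38.5 and 44.6 to 4.61 and 5.54 CPM in endoderm (difference 2.83 ± 0.30, edgeR adjusted p = 4.6e-08), and Lrrc31 rose to 15.8 and 14 CPM in mesoderm and fell to 2.05 and 0.924 CPM in endoderm (difference 3.15 ± 0.34, edgeR adjusted p = 6.5e-08). Other runs were pairs, Ttn with Ccdc141, R3hdml with Hnf4a and Nanog with the glucose transporter gene Slc2a3 among the higher genes, and Cpeb1 with Ap3b2 among the lower. In these pairs and the chromosome 7 run, 1 left-out library could end the calls of Hnf4a (with the libraries already named), Nanog (replicate 1 of mesoderm 48 h, difference 0.93), Ccdc141 (replicate 1 of endoderm UD, 1.71, or replicate 2 of mesoderm UD, 1.83), Nphs1os (replicate 1 of either 48 h group) and Slc2a3 (replicate 2 of endoderm 48 h, replicate 1 of endoderm UD, replicate 1 of mesoderm 48 h or replicate 2 of mesoderm UD, 0.94 to 1.13). The call of Ap3b2 held only without replicate 2 of endoderm 48 h, replicate 2 of mesoderm 48 h or replicate 2 of mesoderm UD.

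**Figure D4:**
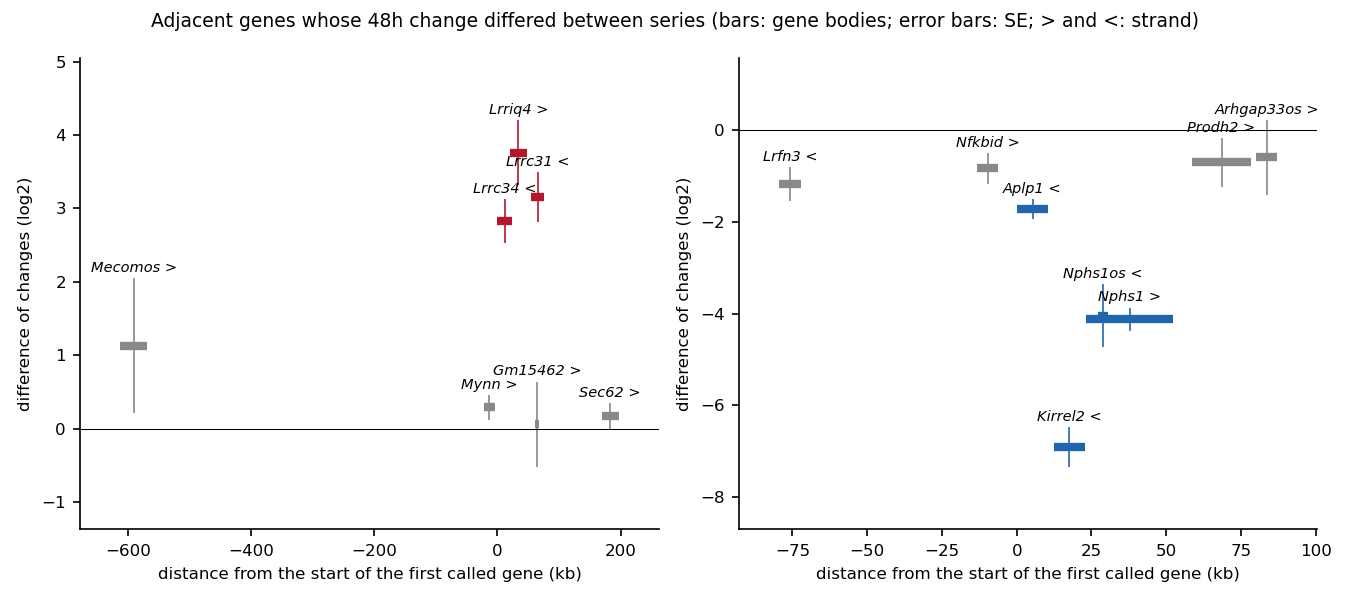
Log2 difference of changes at 48 h (vertical, error bars SE) of the genes in a run of higher genes on chromosome 3 (left) and a run of lower genes on chromosome 7 (right) and of their tested flanking genes, against distance in kb from the start of the first called gene. Called genes are red or blue, the flanking gene Mynn in gray lies near 0 beside the Lrrc run, and a horizontal bar marks each gene body.

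The map of neighboring genes shows that the flanking genes of the chromosome 7 run, Nfkbid and Prodh2, also lay below 0 without being called.

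The same contrast was open in the null lines, each set against its own UD cells. MTF2 and JARID2 are accessory subunits of Polycomb repressive complex 2, which methylates histone H3 at lysine 27. As a check of the labels, Mtf2 was at 26.4 to 34.2 CPM of the unscaled library total in the 8 UD and 48 h libraries labelled Mtf2 null and at 223 to 549 in those of WT. Jarid2 was at 307 to 499 in those labelled Jarid2 null and at 324 to 481 in WT, so the summed gene level does not tell the Jarid2 label from WT, and which exons were removed is not given in the sources used here. These lines share neither libraries nor UD controls with the WT contrast. The labels give E14 as the strain of all 3 genotypes, while the study's methods name other WT lines, Pcl1-3 wt and JM8, as background-matched to Mtf2 null and Jarid2 null, so genotype and parental line cannot be told apart in the comparisons of WT with the null lines.

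In the libraries labelled Jarid2 null the difference of changes was called for 387 genes (1.97%, with 202 or 1.03% higher and 185 or 0.944% lower), and in Mtf2 null for 121 (0.617%, with 42 or 0.214% higher and 79 or 0.403% lower). The Jarid2 null count was 254 without replicate 1 of its endoderm UD group and 257 without replicate 2 of its endoderm 48 h group. The Mtf2 null count was 75 to 80 without replicate 1 of endoderm UD or without any 1 of the 4 mesoderm libraries. Of the 163 WT higher genes, 103 were called higher in the Jarid2 null lines (63.2% of the 163 and 51.0% of the 202) and 26 in Mtf2 null (16.0% of the 163 and 61.9% of the 42). Of the 101 WT lower genes, 86 were called lower in Jarid2 null (85.1% of the 101 and 46.5% of the 185) and 29 in Mtf2 null (28.7% of the 101 and 36.7% of the 79). The median difference of the 163 genes was 1.58 in Jarid2 null and 0.55 in Mtf2 null, and that of the 101 genes was −1.87 and −0.88. The direction was that of WT for 163 and 100 of them in Jarid2 null and for 130 and 96 in Mtf2 null. These genes were chosen by their calls in WT. How far that choice alone draws their values in another line toward 0 was not tested.

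The difference between WT and each null line was tested in the same fit. It was called for 20 genes against Mtf2 null (0.102%), 17 of them higher in WT (0.0867%) and 3 lower (0.0153%), and for 1 gene, Baz1a, against Jarid2 null (0.0051%). Without 1 library the second count was 0 to 2 and the first 9 to 40, with the lowest value without replicate 2 of Mtf2 null mesoderm 48 h and the highest without replicate 1 of WT endoderm 48 h for the first. Among the WT genes, Klf4, Tbx3, Tfap2c, Lrrc15, Furin, Lrpap1 and Xaf1 had a larger difference in WT than in Mtf2 null, and Kirrel2, Ctbp2 and Myrf a lower one. Furin, Lrpap1, Xaf1, Ctbp2, Myrf and Baz1a were named after their values were seen.

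Klf4 had a mean of 341 CPM at UD and 44.4 CPM at 48 h in the Mtf2 null mesoderm libraries and of 349 and 45.3 CPM in those of endoderm, a difference of 0.01 ± 0.24 against 2.51 ± 0.26 in WT (edgeR adjusted p of the contrast 0.00011). The arms thus parted for Klf4 in WT, while their means lay close in Mtf2 null. Tfap2c had 1.16 ± 0.24 against 4.16 ± 0.31 (contrast 2.99 ± 0.40, edgeR adjusted p = 5.2e-05), and Kirrel2 −2.75 ± 0.29 against −6.91 ± 0.43 (contrast −4.16 ± 0.62, edgeR adjusted p = 0.0003). The contrasts of Klf4 and Tfap2c were called in all 16 fits without 1 library, and that of Kirrel2 was not called without any 1 of the 4 mesoderm 48 h libraries of WT or Mtf2 null (edgeR adjusted p up to 0.0095). That of Tbx3 was called in 8 of the 16 fits (contrast 2.42 ± 0.37, edgeR adjusted p = 0.00032, and up to 0.0023 without 1 library), and lost without replicate 1 of WT endoderm UD, replicate 2 of WT mesoderm UD or 48 h, replicate 2 of Mtf2 null endoderm UD, replicate 1 of Mtf2 null endoderm 48 h, replicate 1 of Mtf2 null mesoderm UD or either Mtf2 null mesoderm 48 h library.

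The signaling targets in this paragraph had no called contrast between WT and either null line, though their fitted differences varied. Id1 differed by 6.55 ± 0.32 in Mtf2 null and 6.60 ± 0.31 in Jarid2 null, beside 6.68 ± 0.32 in WT, and Lefty2 by −9.58 ± 0.56 and −10.54 ± 0.56, beside −10.78 ± 0.53. Id3 differed by 4.30 ± 0.24 in Mtf2 null and 6.16 ± 0.28 in Jarid2 null, beside 6.24 ± 0.30, and its contrast of WT with Mtf2 null missed the threshold (1.94 ± 0.40, edgeR adjusted p = 0.0065). Msx2 differed by 9.12 ± 0.68 in Jarid2 null but was not called in Mtf2 null (2.24 ± 0.48, edgeR adjusted p = 0.0057), beside 7.26 ± 0.66 in WT, and its contrast of WT with Mtf2 null missed the threshold (5.02 ± 0.84, edgeR adjusted p = 0.0011). Smad6 was not called in Mtf2 null either (1.70 ± 0.45, edgeR adjusted p = 0.033). Its contrast of WT with Mtf2 null was 1.62 ± 0.66 (edgeR adjusted p = 0.37).

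**Figure D5:**
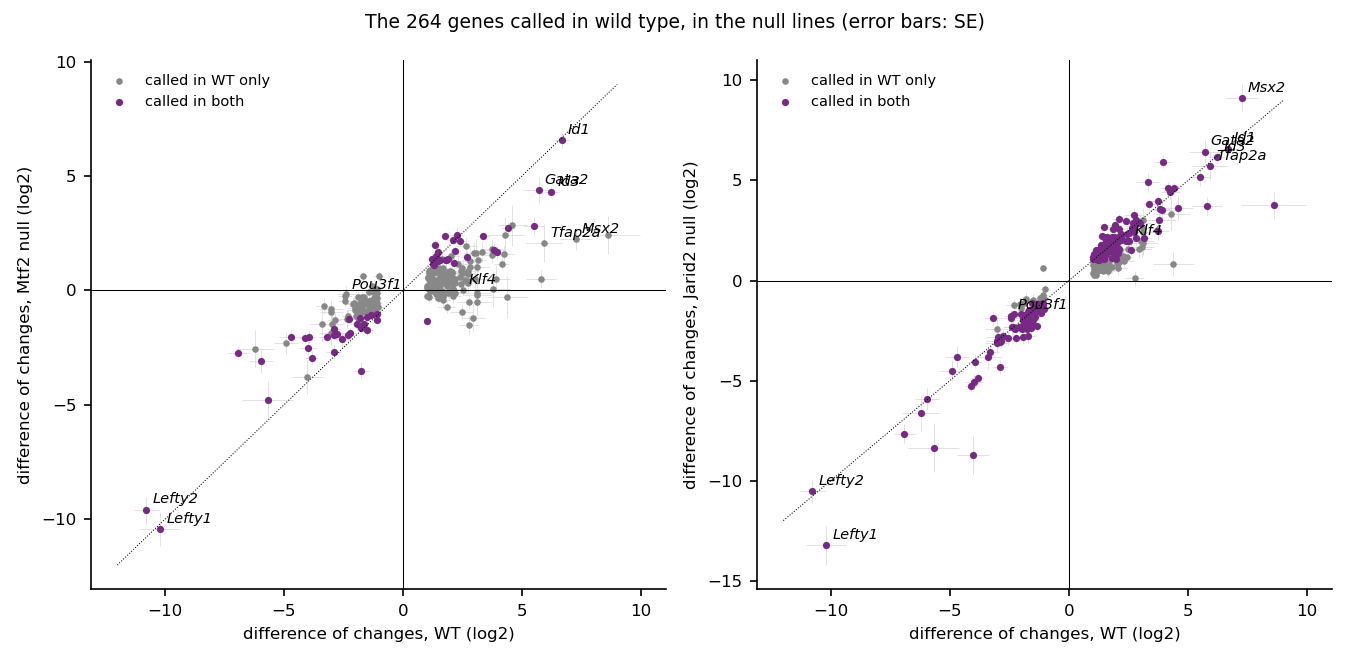
Log2 difference of changes at 48 h of the 264 genes called in WT (horizontal) against the same quantity in Mtf2 null (left) and Jarid2 null libraries (right), with SE bars, the line of equality dotted and genes called in both genotypes in purple. Most points of Jarid2 null lie near the line, and most points of Mtf2 null lie closer to 0, with Klf4 at 0.01.

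In the plot of the null lines, Id1 and Lefty2 lie near the line of equality in both panels. Lefty1 lies near it in Mtf2 null (−10.44) and below it in Jarid2 null (−13.24, beside −10.20 in WT). These Lefty1 values are fitted and rest on near-zero levels in mesoderm at 48 h. In the Mtf2 null panel 1 gene, Lrpap1, was called in opposite directions in WT (1.02) and Mtf2 null (−1.35).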

How the data were processed

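RNA was measured in bulk from WT cells and from the Mtf2 null and Jarid2 null lines at UD, 5 h, 24 h and 48 h in a mesoderm and an endoderm series, with 2 libraries per group, which the study describes as technical duplicates, so p-values measure only the spread between these libraries. The deposited values are estimated counts per gene that the authors made from paired-end reads of rRNA-depleted RNA with Bowtie2 on GRCm38/mm10 and Salmon, without normalization (versions not given in the sources used here). The columns of the Jarid2 null endoderm 48 h libraries are named 28h in the table, and the labels give 48 h, which was used.

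Values were rounded, and 53668 genes present in both tables were kept (725 and 29 not shared, 0.0442% and 0.00187% of counts). The 48 libraries held 9111662 to 16898061 counts, of which rRNA rows took 13.41% to 24.38%. edgeR 4.0.16 in R 4.3.3 (TMM, filterByExpr at a count of 10 and a total of 15, quasi-likelihood F test) fitted 24 group means to 19601 genes, and standard errors are the log2 value divided by the root of F. On simulated counts of this design, 99 of 100 genes at a log2 difference of 2 and 99 of 100 at 3 were recovered, and 0 of 19241 unchanged genes were called. The simulated spread followed the fitted trend with level alone, without the added spread of single genes or groups. Changed genes were drawn only from those with a mean of at least 5 CPM. These shares therefore do not measure recovery or false calls at the spread of the real libraries. Alternatives were DESeq2 1.42.0, RLE or total-count scaling, no filter, no rRNA rows, the contrast's libraries alone, the 48 h libraries without UD, a replicate block and each library left out.

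The comparison and the gene lists were chosen with earlier results of these data known. Named genes are 30 key lineage genes, the 10 largest called differences per direction with at least 5 CPM in a group and the same sign in all 4 replicate pairings, and up to 4 called members per direction of each list, with up to 2 more where fewer than 2 were called. Embryoid body and single-cell files were not used here, and a few genes that meet these rules are not reported here. Promoters are those of RefSeq on GRCm38.p6 and gene positions those of GENCODE M21.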

Additional observations from a re-analysis of the deposited data

Results flagged for a closer look

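The test of the difference of changes itself, an interaction of series and time in edgeR, called 264 genes whose change from UD to 48 h differed between the arms, and all of them are drawn in the plot of both changes. Of these, 11 genes rose in mesoderm and fell in endoderm, and 6 fell in mesoderm and rose in endoderm. With 2 libraries per group, the replicates can be compared as a pair, but which of them stands apart cannot be told.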

How the results depend on the processing

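The count of 264 genes was 697 at 48 h without UD, 27 with the 8 libraries alone, 472 without the filter, and 170 to 278 without 1 library, and it moved by less than 1.5 times with DESeq2 (332), library totals (294), RLE scaling (268), no rRNA rows (268) and, chosen after seeing the data, the 24 h libraries in place of UD (257). Same-numbered libraries of UD and 48 h deviated in opposite directions in mesoderm and hardly together in endoderm (Pearson's r across 11037 genes −0.356 and 0.091). The shared numbers thus do not mark pairs, and whether the mesoderm libraries are paired in crossed order cannot be told from these values. With the replicate block the count was 231, with the numbers of mesoderm 48 h crossed 242, and with a block for same-numbered UD libraries of both series 312, the last 2 chosen after seeing the data. With the contrast's libraries alone, the other counts were 882 for the mesoderm change, 7 between the UD groups, 0 at 24 h, 30 in Mtf2 null, 118 in Jarid2 null, 3 for WT against Mtf2 null and 0 for WT against Jarid2 null. Without the filter they were 178 between the UD groups, 84 at 24 h, 272 in Mtf2 null, 185 for WT against Mtf2 null and 62 for WT against Jarid2 null. With the replicate block they were 18 between the UD groups, 0 at 24 h, 12 for WT against Mtf2 null and 0 for WT against Jarid2 null. WT against Mtf2 null, a comparison added after seeing the data like that with Jarid2 null, gave 87 with DESeq2 and 45 with library totals. Without 1 library the counts were 23 to 26 between the UD groups, 0 to 1 at 24 h, 75 to 95 in Mtf2 null, 254 to 327 in Jarid2 null, 9 to 40 for WT against Mtf2 null and 0 to 2 for WT against Jarid2 null. The differences of 82 genes were followed under 19 settings, and that of Otx2 went from −0.90 to 0.73 with the 24 h libraries subtracted. Uncalled differences near 0 could change sign as well. That of Nodal (−0.10) ran from −0.28 to 0.06 without 1 library, and that of Cdh1 (0.05) from −0.19 to 0.32. The cause of these shifts was not tested, apart from fewer libraries giving fewer degrees of freedom. With 2 libraries per group, differences near the threshold are uncertain, genes at a few reads have wide intervals, and counts of 0 do not show absence.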

Other observations

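Several genes outside the lists were called in the difference. The genes in this section were chosen singly after their values were seen, no list of their kind was tested, and the call of each held in all 8 fits without 1 library. Igf2, the imprinted gene of insulin-like growth factor 2, rose from 4.38 and 3.16 to 69 and 88.3 CPM in mesoderm and was at 4.69 and 5.91 CPM in endoderm at 48 h, against 4.19 and 3.57 CPM at UD (difference 3.94 ± 0.37, edgeR Benjamini-Hochberg adjusted p = 4.3e-09). Igfbp2, which encodes a protein that binds this factor, fell from 204 and 196 to 61.2 and 36.1 CPM in mesoderm and was at 170 and 141 CPM in endoderm (difference −1.86 ± 0.22, edgeR adjusted p = 6.5e-07). Peg10, an imprinted gene of retrotransposon origin, rose from 274 and 190 to 596 and 645 CPM in mesoderm and was at 184 and 182 CPM in endoderm (difference 1.75 ± 0.17, edgeR adjusted p = 7.6e-09). Hmga2, a chromatin protein of proliferating embryonic cells, rose from 6.96 and 6.33 to 47.7 and 48.4 CPM in mesoderm and was at 9.21 and 9.7 CPM in endoderm (difference 2.69 ± 0.25, edgeR adjusted p = 4.5e-09).

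A pair of Eph receptors went opposite ways in mesoderm. Epha2 fell from 143 and 118 to 40.9 and 60 CPM in mesoderm and was at 241 and 210 CPM in endoderm at 48 h, against 131 and 112 CPM at UD (difference −2.26 ± 0.18, edgeR adjusted p = 2.2e-10). Epha4 rose from 17.4 and 17.3 to 50.2 and 54.7 CPM in mesoderm and was at 17.8 and 15.9 CPM in endoderm (difference 1.66 ± 0.23, edgeR adjusted p = 8.3e-06). Crmp1, a collapsin response mediator, was at 7.61 and 8.89 CPM in mesoderm and 64.2 and 48.4 CPM in endoderm at 48 h (difference −2.92 ± 0.26), its relative Dpysl5 at 8.87 and 11.2 against 32.1 and 24 CPM (difference −1.72 ± 0.25), and the intermediate filament gene Ina at 8.74 and 10.4 against 35.6 and 32.4 CPM (difference −1.93 ± 0.25). The list of neural ectoderm markers held no called gene, and Sox1 and Pax6 had 82 and 36 reads in the mesoderm and 119 and 30 reads in the endoderm 48 h libraries.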
